A study of Mus musculus with 2 samples.

Results

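The genes described here are 10 regulators and effectors of apoptosis, chosen by name from the RefSeq annotation of the mouse genome. They are 3 pro-survival members of the Bcl2 family (Bcl2, Bcl2l1 and Mcl1), 4 pro-death members (Bcl2l11, Bax, Bbc3 and Pmaip1), and Fas, Tnf and Xaf1, which the study names among genes with lower mRNA in Lck-Dlx5 lymphomas. They were examined, out of 21896 protein-coding genes, for intervals called in 1 ChIP-seq library of Myc-Tag Dlx5. Of the 10 genes, 4 had a Myc-Tag interval in the gene body or within 10 kb on either side, beside 19.0% of all protein-coding genes. These were Mcl1, Bcl2l11, Bax and Bbc3, and each had a summit within 1 kb of an annotated transcription start, as did 11.4% of protein-coding genes with an annotated start in the promoter table. Fas, Tnf, Xaf1, Bcl2, Bcl2l1 and Pmaip1 had none.

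Peaks of a ChIP-seq experiment were examined, from T-cell lymphoma of Lck-Dlx5 transgenic mice, in which the Lck promoter directs the homeobox gene Dlx5, carrying a Myc-Tag, to thymocytes. The labels give 1 Myc-Tag ChIP sample of strain C57BL/6 and 1 input sample, whose strain is written C57BL/7, both from a primary tumor. The study's methods give instead 1 cell line derived from such a lymphoma, with IgG as the control. There was 1 library of each kind, so no replicate error can be given for any value and no test between conditions was possible. Neither the age of the animals nor any gene expression was part of these data, and the labelled cell type could therefore not be checked against marker genes.

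Apoptosis of thymocytes follows an intrinsic and an extrinsic route. In the intrinsic route, Bcl2, Bcl2l1 (Bcl-xL) and Mcl1 hold the pore-forming proteins Bax and Bak1 in check at the mitochondrion, and BH3-only proteins such as Bcl2l11 (Bim), Bbc3 (Puma) and Pmaip1 (Noxa) bind the pro-survival proteins and release that block. Bim is known for its part in the deletion of autoreactive thymocytes, and Puma and Noxa are known targets of p53. In the extrinsic route, signals from death receptors such as Fas, or from a receptor of the cytokine Tnf, can lead to activation of caspases. Xaf1 counteracts the caspase inhibitor Xiap.

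An interval is a stretch of the genome where the peak caller found more reads than it expected, and its summit is the position of greatest signal. The height deposited with each summit is a whole number without a stated unit or normalization. The Myc-Tag library had 3477 intervals with summit heights from 9 to 301 and a median of 16, and the input library had 28, each overlapping a Myc-Tag interval. The coordinates follow mm10 (GRCm38), although the submitters' processing notes name mm9. With GRCm38 genes, 58.4% of the summits lay within 1 kb of an end of a protein-coding gene, and 4.66% and 5.32% did so when every summit was moved by 500 kb up or down the chromosome.

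The sequences upstream of the annotated starts are shown first for the 4 genes with an interval, since an interval overlaps each of these stretches. Each is the 250 bases before the start, read in the direction of transcription from RefSeq promoter windows of GRCm38.p6, with every CpG dinucleotide in capitals. The Mcl1 sequence is chr3:95658471-95658720 on the plus strand and lies wholly inside the called interval. The Bcl2l11 sequence, before the second of its annotated starts, is chr2:128127325-128127574 on the plus strand and also lies wholly inside. It was chosen for this overlap, since the summit was nearer to the first start, whose window, from 250 bases before to 50 after, has 0 bases inside the interval. The Bax sequence is chr7:45466899-45467148 on the minus strand, with 237 of the 250 bases inside. The Bbc3 sequence, before the first of its starts, is chr7:16309333-16309582 on the plus strand, with 200 bases inside. The marked CpGs numbered 26 for Mcl1, 30 for Bcl2l11, 14 for Bax and 27 for Bbc3.
Mcl1: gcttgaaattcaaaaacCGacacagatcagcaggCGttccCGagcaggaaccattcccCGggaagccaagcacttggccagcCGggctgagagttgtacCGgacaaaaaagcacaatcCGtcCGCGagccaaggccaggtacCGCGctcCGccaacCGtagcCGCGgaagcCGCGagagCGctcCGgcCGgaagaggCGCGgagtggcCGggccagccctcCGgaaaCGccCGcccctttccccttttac
Bcl2l11: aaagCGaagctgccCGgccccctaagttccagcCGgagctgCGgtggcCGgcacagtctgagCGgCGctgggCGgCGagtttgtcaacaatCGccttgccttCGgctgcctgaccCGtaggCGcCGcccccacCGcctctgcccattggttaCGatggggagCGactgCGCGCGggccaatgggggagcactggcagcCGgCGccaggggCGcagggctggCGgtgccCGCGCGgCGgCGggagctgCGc
Bax: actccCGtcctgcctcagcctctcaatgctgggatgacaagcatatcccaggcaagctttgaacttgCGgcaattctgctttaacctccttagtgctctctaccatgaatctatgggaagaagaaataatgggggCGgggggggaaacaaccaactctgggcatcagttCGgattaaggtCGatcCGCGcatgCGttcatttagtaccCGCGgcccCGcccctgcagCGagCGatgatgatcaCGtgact
Bbc3: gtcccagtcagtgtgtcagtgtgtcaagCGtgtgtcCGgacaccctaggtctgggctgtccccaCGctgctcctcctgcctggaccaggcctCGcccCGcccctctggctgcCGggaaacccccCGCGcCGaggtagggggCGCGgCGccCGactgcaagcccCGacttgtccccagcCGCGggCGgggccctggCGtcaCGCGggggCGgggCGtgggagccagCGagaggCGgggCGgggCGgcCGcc

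For comparison, the same stretch is shown for the 3 genes the study names, where no interval was called. Fas is chr19:34290409-34290658 on the plus strand, Tnf is chr17:35202008-35202257 on the minus strand and Xaf1 is chr11:72301379-72301628 on the plus strand. They held 11, 10 and 5 CpGs, respectively.
Fas: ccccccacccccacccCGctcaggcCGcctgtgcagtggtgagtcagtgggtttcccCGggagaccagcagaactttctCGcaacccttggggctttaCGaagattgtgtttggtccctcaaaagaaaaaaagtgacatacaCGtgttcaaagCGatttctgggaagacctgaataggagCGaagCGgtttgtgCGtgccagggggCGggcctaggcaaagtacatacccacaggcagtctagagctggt
Tnf: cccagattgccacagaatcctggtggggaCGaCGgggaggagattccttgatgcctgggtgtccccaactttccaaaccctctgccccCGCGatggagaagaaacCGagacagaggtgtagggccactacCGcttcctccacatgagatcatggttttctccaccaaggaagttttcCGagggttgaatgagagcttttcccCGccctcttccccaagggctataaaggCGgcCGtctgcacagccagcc
Xaf1: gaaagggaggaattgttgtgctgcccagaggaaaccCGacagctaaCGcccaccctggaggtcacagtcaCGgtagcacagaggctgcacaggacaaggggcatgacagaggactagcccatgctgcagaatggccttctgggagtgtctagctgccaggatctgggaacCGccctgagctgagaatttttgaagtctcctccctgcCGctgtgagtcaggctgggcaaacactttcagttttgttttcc

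**Figure D1:**
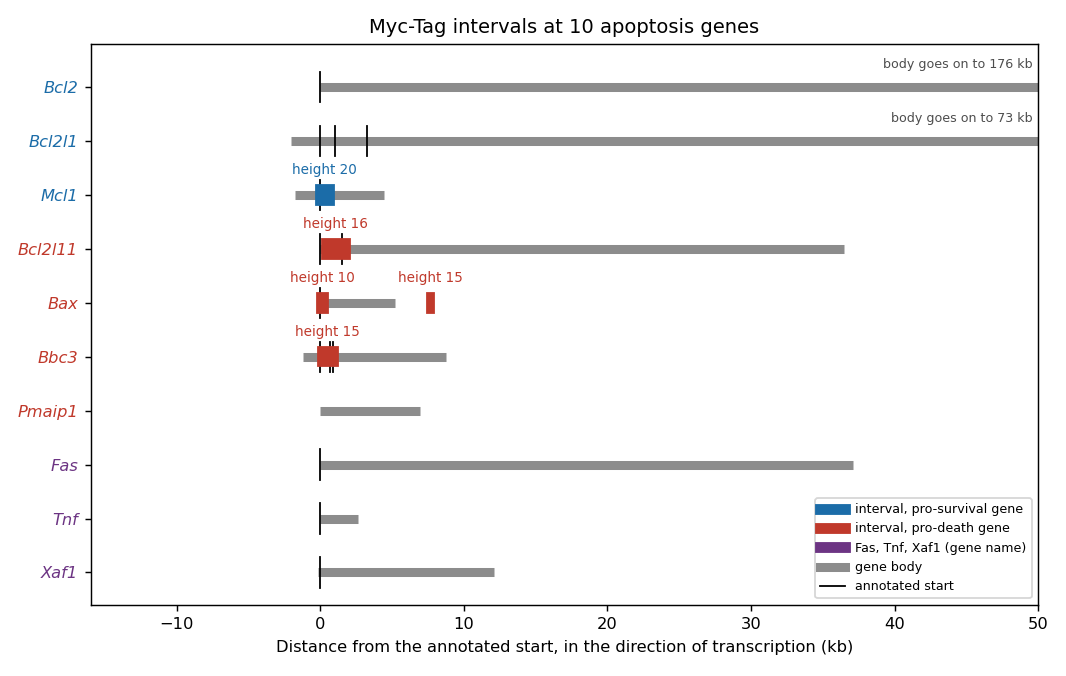
Gene bodies (gray), annotated starts (black ticks) and Myc-Tag intervals (colored blocks, with summit height) of the 10 genes, in kb from the first annotated start along the direction of transcription, with Pmaip1, which has no entry in the promoter table, drawn from its lower coordinate. Intervals sit at the starts of Mcl1, Bcl2l11, Bax and Bbc3, a further interval lies beyond the end of Bax, and the other 6 genes have none.

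Among the pro-survival genes, 1 of 3 had an interval, beside 19.0% of all protein-coding genes. The pro-survival gene with an interval was Mcl1, which encodes a short-lived anti-apoptotic protein that T cells depend on. Mcl1 spans 95656944 to 95663179 of chromosome 3, and its interval ran from 95658377 to 95659674. The summit, at 95658848, was 127 bp downstream of the annotated start. Its height of 20 was the tallest at any of the 10 genes and was exceeded by 650 of the 3477 Myc-Tag summits (18.7%). The interval was also wide, at 1298 bp, with 274 intervals (7.88%) wider. It overlapped no other gene of the table.

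No interval was called at Bcl2 or Bcl2l1, although these are the longest of the 10 genes. Bcl2, at 176 kb on chromosome 1 (106538176 to 106714290), had no summit nearer than 45.6 kb. That summit had a height of 22 and lay 130 bp from an end of Kdsr, a gene of sphingolipid synthesis. It was the only Myc-Tag summit within 1 Mb of Bcl2, as the next nearest was 8767680 bp away. Bcl2l1 spans 75.1 kb of chromosome 2 (152758732 to 152833803), and the summit nearest to it, with a height of 12, was 181 kb away and 787 bp from an end of Pdrg1. In this library, then, the pro-survival genes differed in that the start of Mcl1 lay in a called interval and no start of Bcl2 or Bcl2l1 did.

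Among the pro-death Bcl2 family genes, 3 of 4 had an interval, beside 19.0% of all protein-coding genes. With heights of at least 16, the median, 1 of the 4 was counted, beside 10.7% of all. Bcl2l11, the BH3-only gene Bim, spans 128126038 to 128162547 of chromosome 2. Its interval ran from 128126144 to 128128068, and the summit at 128126560 had a height of 16, equal to the median of the library. The RefSeq table gives starts at 128126038 and 128127575 for this gene. The interval began 106 bp after the first and covered the second, with the summit 522 bp downstream of the first. At 1925 bp it was among the widest in the library, with 35 of 3477 intervals (1.01%) wider, and among the 321 intervals of the same height 3 were wider. It shared 109 bp with the last bases of Acoxl, an acyl-CoA oxidase-like gene, whose annotated end lay 308 bp before the summit and so was nearer to it than the Bcl2l11 start.

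Bbc3, the BH3-only gene Puma, spans 16308398 to 16318334 of chromosome 7. Its interval ran from 16309383 to 16310802 with a summit at 16309808, 225 bp downstream of the nearest of its 3 annotated starts. All 3 starts lay inside this interval, which was 1420 bp wide (164 intervals, or 4.72%, were wider). The height was 15, and 1739 of the 3477 summits were taller. No other gene overlapped it.

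Bax, which encodes a pore-forming effector, spans 45461695 to 45466903 of chromosome 7 and was the only one of the 10 genes with more than 1 interval. The interval over its start ran from 45466351 to 45467135 with the summit at 45466768, 130 bp downstream of the start. Its height of 10 was close to the lowest height called, since 3367 summits (96.8%) were taller and 16 were lower. The other interval, from 45458964 to 45459489 with a height of 15, had its summit 2399 bp outside Bax. That interval lay inside Ftl1, the gene of the ferritin light chain, with the summit 590 bp downstream of the Ftl1 start, so that it is counted at Bax only through the 10 kb allowed. Over all protein-coding genes, 3.14% had 2 or more intervals by this rule.

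Pmaip1, the BH3-only gene Noxa, spans 66458604 to 66465558 of chromosome 18 and had no interval. The nearest summit had a height of 13 and was 984 kb away, 72 bp from an end of Afg3l2. It was the only summit within 1 Mb of Pmaip1.

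**Figure D2:**
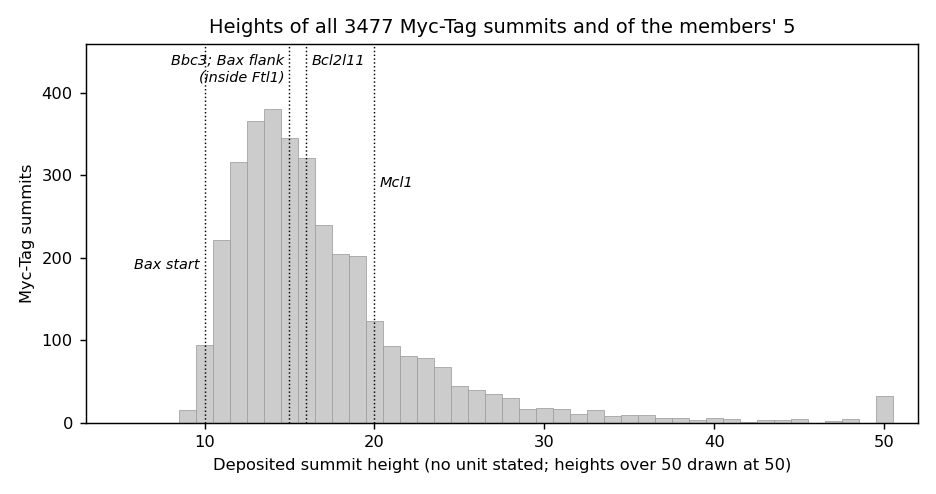
Histogram of the deposited heights of all 3477 Myc-Tag summits (heights over 50, from 30 summits, drawn at 50), with dotted lines at the heights of the 5 summits counted at Mcl1, Bcl2l11, Bax and Bbc3. Mcl1 (20) lies above the median of 16, Bcl2l11 is at 16, Bbc3 and the interval inside Ftl1 are at 15, and the interval at the Bax start (10) is near the lower limit.

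In order of height, the summits at the starts were thus Mcl1 (20), Bcl2l11 (16), Bbc3 (15) and Bax (10). With a single library and no stated normalization, there is no replicate spread against which neighbors in this order could be told apart. The input library had no call at any of the 5 intervals. At these heights that says little, because none of the 2827 Myc-Tag intervals with heights up to 20 was called in the input, where the lowest Myc-Tag height among the shared intervals was 21.

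Fas, Tnf and Xaf1 had no interval, 0 of 3, beside 19.0% of all protein-coding genes with one. Fas, the gene of a death receptor, spans 34290647 to 34327775 of chromosome 19. The nearest Myc-Tag summit was 551 kb away, had a height of 12 and was the only one within 1 Mb. Xaf1, on chromosome 11 from 72301461 to 72313733, had its nearest summit at 128 kb, with a height of 12 and a position 1 bp from an end of Mybbp1a, and 4 summits lay within 1 Mb.

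Tnf, the gene of tumor necrosis factor, differed from these in its surroundings. It spans 35199367 to 35202007 of chromosome 17, within the major histocompatibility complex, and 5 summits lay within 100 kb of it and 16 within 1 Mb. The nearest was 34.0 kb away with a height of 24, 513 bp from an end of Nfkbil1, and 330 summits (9.49%) were taller. The summit next nearest to Tnf was at 34663 bp. No interval was called in the 10 kb around Tnf itself. The absence of an interval at these 3 genes means that no site passed the caller's threshold in this library, and weaker occupancy below that threshold was not detectable. A lower mRNA level is a different measurement, and the expression arrays were not analysed here.

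Of all 21896 protein-coding genes, 19.0% were counted by the same rule, against 4 of the 10 genes here, of which pro-survival genes gave 1 of 3, pro-death genes 3 of 4 and the remaining genes 0 of 3. These counts rest on single genes, and no test was made of the difference between the groups. When only summits within 1 kb of an annotated start were counted, the same 4 genes had one, among the 9 with an entry in the RefSeq promoter table. The share over the 17491 protein-coding genes with an entry was 11.4%. With 1 kb in place of 10 kb around the gene these 4 genes were also counted, beside 14.2% of all protein-coding genes. Among summits with a height of at least 16, the median, 2 of the 10 genes were counted (Mcl1 and Bcl2l11) beside 10.7% of all, and with a height of at least 19, the 75th percentile, 1 of the 10 (Mcl1) beside 6.05%. Within 50 kb, Bcl2 and Tnf were added, which gave 6 of 10 genes beside 33.3% of all.

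The widths of the intervals at the starts were set beside those of other intervals by the number of annotated starts that they held. The median width was 680 bp for the 1823 intervals without an annotated start, 816 bp for the 1227 with 1 start, 920 bp for 349 with 2 and 1039 bp for 78 with 3 or more. Mcl1 (1298 bp, 1 start), Bcl2l11 (1925 bp, 1 start) and Bbc3 (1420 bp, 3 starts) were each wider than the upper quartile of their class, which was 1014.5 bp for 1 start and 1235 bp for 3 or more. The interval at the Bax start (785 bp, 1 start) was narrower than the median of its class, and the interval inside Ftl1 was narrower still, at 526 bp. Since 3016 intervals (86.7%) were wider than the latter, the 5 intervals ranged over most of the widths in the library.

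**Figure D3:**
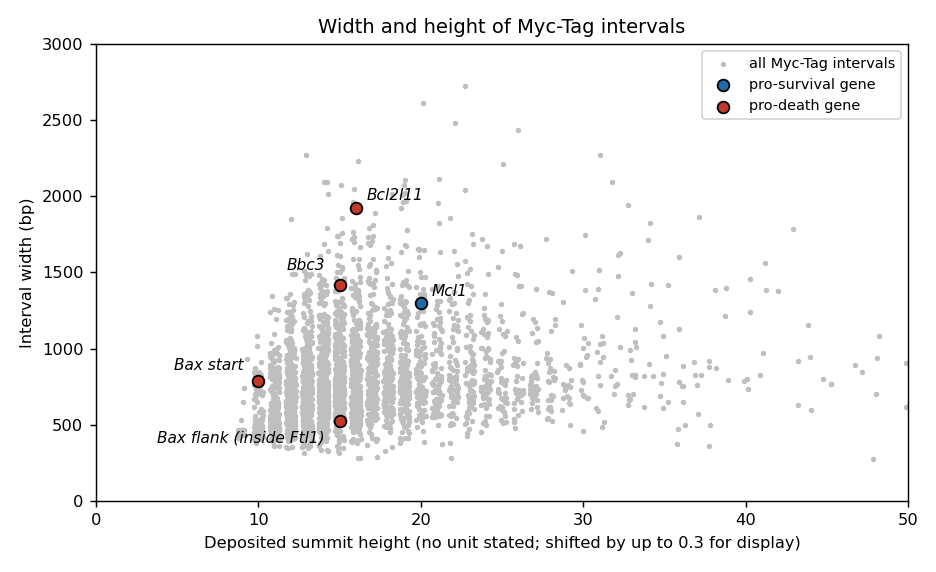
Width in bp against deposited summit height for all Myc-Tag intervals (gray points, with 32 beyond a height of 50 or a width of 3000 bp not shown) and for the 5 counted at the apoptosis genes (large points). The intervals at Bcl2l11 (1925 bp), Bbc3 (1420 bp), Mcl1 (1298 bp) and the Bax start (785 bp) are wider than the median of intervals of the same height, which is 803, 787, 828 and 527.5 bp, and the one inside Ftl1 (526 bp) is narrower than its median of 787 bp.

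The promoters also differed in base composition, which was measured in windows of 300 bases, from 250 before to 50 after each start. The CpG ratio is the number of CpG dinucleotides divided by that expected from the C and G content. All 9 genes with an entry could be compared, over 14 windows. The windows overlapped by an interval had CpG ratios of 1.02 at Mcl1, 0.94 at the second start of Bcl2l11, 0.77 at Bax and 0.79, 0.75 and 0.91 at the 3 starts of Bbc3. The ratios at Fas (0.54), Tnf (0.44) and Xaf1 (0.27) were all lower than these. High CpG content did not separate the genes completely, because the Bcl2 window had a ratio of 1.02 and a G + C content of 76.0%, and the first Bcl2l1 window had a ratio of 1.07, without an interval in either.

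Over all 21262 promoter windows of protein-coding genes, the median CpG ratio was 0.86 in the 2117 windows overlapped by an interval (9.96%) and 0.50 in the 19145 others. By gene, with the highest ratio among its windows, 20.5% of the 8895 genes with a ratio of at least 0.6 had a summit within 1 kb of a start, and 2.04% of the 8596 genes under 0.6. Of the 10 genes, Mcl1, Bcl2l11, Bax, Bbc3, Bcl2 and Bcl2l1 were in the first class, and 4 of these 6 had such a summit. Fas, Tnf and Xaf1 were in the other class, and 0 of 3 had one. The limit of 0.6 was chosen after these values were seen, and since 79.9% of protein-coding genes had a promoter entry, under the 80% set as a minimum, the shares hold for those genes only.

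**Figure D4:**
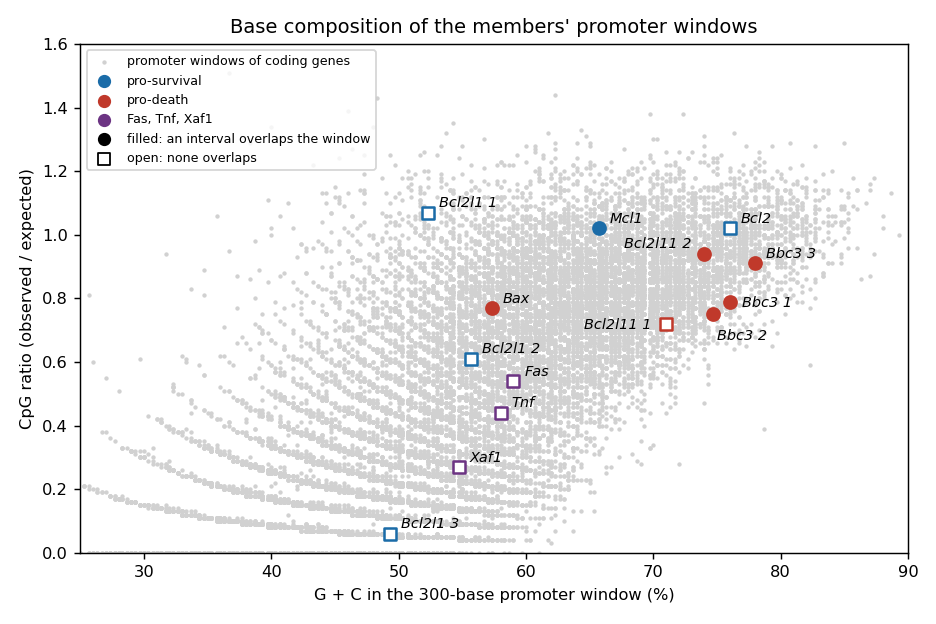
CpG ratio against G + C content (%) in 300-base promoter windows of protein-coding genes (gray) and of 9 apoptosis genes (large symbols, numbered where a gene has several starts), filled where a Myc-Tag interval overlaps the window. Filled symbols have CpG ratios from 0.75 to 1.02, Fas, Tnf and Xaf1 are open at 0.27 to 0.54, and Bcl2 is open at 1.02.

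The motif TAATT, which the study gives as the classic Dlx binding motif, was searched in the same windows on both strands, as TAATT or AATTA. It was found in 4986 of the 21262 windows (23.5%), in 14.0% of those overlapped by an interval and in 24.5% of the others. The median G + C content was 63.3% in the overlapped windows and 55.7% in the others, and its part in this difference was not tested. The study reports the motif from a search of its Dlx5 binding sequences, which are not the same as these windows. None of the windows of Mcl1, Bcl2l11, Bax or Bbc3 held TAATT. Among the 9 genes, Bcl2l1 alone did, with 1 match in the window of its second start and 1 in the window of the last. The 250 bases before the second start, chr2:152830718-152830967 on the minus strand, are shown with the match in capitals, because this gene had the motif and no interval. The letters of the rest of each interval were not searched, as no genome sequence was used here, and a match or its lack in these windows says nothing about occupancy.
Bcl2l1: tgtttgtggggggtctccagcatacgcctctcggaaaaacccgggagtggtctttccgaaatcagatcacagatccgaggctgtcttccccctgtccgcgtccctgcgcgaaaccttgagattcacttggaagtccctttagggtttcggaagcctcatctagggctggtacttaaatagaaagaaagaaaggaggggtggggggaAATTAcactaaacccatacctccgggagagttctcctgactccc

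The wider apoptosis pathway was described with 40 further genes, grouped by role. Of these 40, 10 had an interval in the body or within 10 kb, beside the 19.0% of all protein-coding genes. Within 1 kb the count was 6 of 40, beside 14.2%, and by nearest gene only 5 of 40, beside 13.2%. A summit within 1 kb of a start was found for 4 of the 35 with a promoter entry, beside 11.4% of all genes with one. By the 10 kb rule, the BH3-only genes Bad, Bik and Bmf had an interval, 3 of 5, while Bid and Hrk had none. The tallest summit of the list, at 37, lay 170 bp upstream of the nearest start of Bmf, a BH3-only gene, and 68 of the 3477 summits (1.96%) were taller. A second Bmf interval with a height of 17 lay 4874 bp upstream. At Bad the summit, with a height of 16, was 69 bp upstream of the start. By distance to gene bodies, another protein-coding gene was nearer to this summit. The interval counted at Bik, with a height of 15, had its summit 42 bp from an end of Ttll1 and 8358 bp from Bik.

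Together with the 10 genes, 5 of 8 BH3-only genes had an interval (Bcl2l11, Bbc3, Bad, Bik and Bmf), beside 19.0% of all protein-coding genes. A summit within 1 kb of a start was found for 4 of the 6 with an entry in the promoter table, beside 11.4% of all genes with one. For the anti-apoptotic Bcl2 family the counts were 2 of 8 and 1 of 7, and for the pore-forming effectors 1 of 3 and 1 of 3. With each interval given only to the nearest gene, Bad and Bik were no longer counted, which left 3 of 8 BH3-only genes beside 13.2% of all protein-coding genes. The groups are small, and no test was made of the difference between them. The interval counted at Bcl2l2, with a height of 11, was 6854 bp from that gene and 915 bp from an end of Ppp1r3e. The effectors Bak1 and Bok had none.

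Of the caspase genes described, which encode the proteases of apoptosis, 2 of 4 had an interval, beside 19.0% of all protein-coding genes. At Casp2 the summit (height 16) was 247 bp downstream of the start. The interval counted at Casp9 (height 19) had its summit 108 bp from an end of Dnajc16 and 2860 bp outside Casp9. Casp6 and Casp8 had none. In the group of death receptors, other receptors of the Tnf family and their ligands, 1 of 8 genes was counted by this rule. It was Tnfrsf1b, which belongs to the other receptors, with a summit of 11 at 7722 bp from the gene. The ligand gene Fasl and the receptor genes Tnfrsf1a and Tnfrsf10b had none, nor did Tnfsf10, Tnfrsf21, Tnfrsf25 or Lta, the neighbor of Tnf.

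In the remaining groups, 1 gene each was counted, beside 19.0% of all protein-coding genes. Among adaptors and regulators of the receptors this was Tradd, 1 of 5, with a summit of 15 inside the gene and another of 21 that lay 882 bp from an end of B3gnt9. Among mitochondrial factors it was Htra2, 1 of 6, where a summit of 21 lay 21 bp outside the gene. With each interval given only to the gene with the nearest body, this interval went to another gene, and Htra2 was no longer counted. Among the inhibitor of apoptosis proteins the gene counted was Birc6, 1 of 5, with a summit of 19, 105 bp downstream of the start. Xiap, the target of Xaf1, had none. The input had no call at the intervals counted for the 40 genes. For those with heights up to 20 this says little, since no Myc-Tag interval of such height was called in the input. The lowest Myc-Tag height among the intervals also called there was 21.

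**Figure D5:**
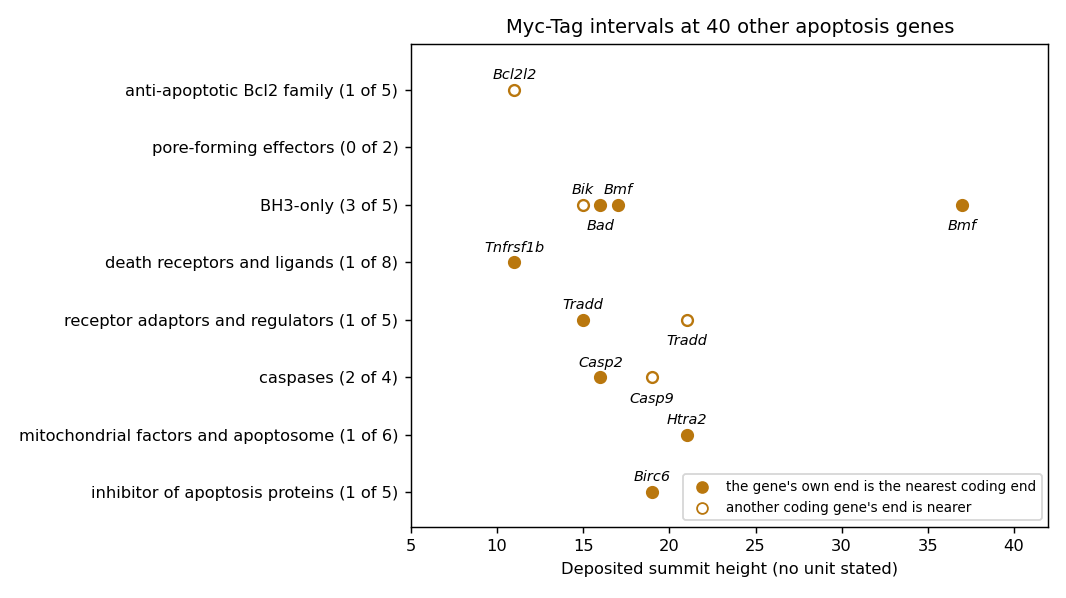
Deposited summit heights (horizontal axis, no unit stated) of the Myc-Tag intervals counted at 40 other apoptosis genes, by role, with the number of genes that had an interval. Filled points mark intervals whose nearest coding gene end belongs to the named gene, and Bmf at 37 is the tallest.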

How the data were processed

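The deposited table holds 5 browser tracks, namely summits and intervals of the Myc-Tag ChIP and of the input, called separately by library, and a list of active regions. Per the methods, Active Motif ran the ChIP-seq on an Illumina GA II and peaks were called by MACS p-value, and the processing notes name BWA and mm9. The MACS version, threshold and control are not given in the sources used here. The value the authors deposited with each summit is a score, its height, without stated normalization. The depth of either library is unknown, as no read totals were used. Most summit positions (3329 of 3477) were multiples of 16 bp and so are exact to about that distance.

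Each summit was joined to its interval, with starts counted from 1. Genes and starts came from RefSeq tables of GRCm38.p6, which give no exons, and a gene was counted when an interval shared at least 1 bp with its body or the 10 kb flanking it. Computation was done in Python 3.11.15 with pandas 2.3.3, numpy 2.4.6 and matplotlib 3.10.9, and the overlap step was tested on simulated data. The genes and lists were chosen with earlier results of these data known. Named genes were the 10, those of the wider list with an interval, the neighbors whose end was nearer to a summit, and the coding gene nearest to the closest summit where a gene had none. Genes of the wider list without an interval were named to complete its counts. The results for 2 genes of that list are not reported here, and its counts leave them out.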

Additional observations from a re-analysis of the deposited data

How the results depend on the processing

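No paired analysis was possible because there was a single library of each kind, and none could be left out. All alternatives were planned, except the search for TAATT in the 250 bases before the start alone, which was chosen after seeing the data and found the motif in the same 1 gene. Several alternatives left the genes counted among the 10 at Mcl1, Bcl2l11, Bax and Bbc3. These were 1 kb in place of 10 kb around the gene, and at least 50% of an interval inside. The others were each interval given only to the nearest gene, and summits within 1 kb of a start. Leaving out intervals called in the input gave the same genes, but could not have changed them. None of the 2827 Myc-Tag intervals with heights up to 20 was called there, and no height at these genes exceeded 20. The threshold on height mattered more. At or above the median of 16, 2 of the 10 genes were left, Mcl1 and Bcl2l11, with 2 intervals in place of 5 and 1 of the 4 pro-death genes. At or above the 75th percentile, 19, 1 gene was left, Mcl1, with 1 interval and 0 pro-death genes. The shares of all protein-coding genes were then 10.7% and 6.05%. Within 50 kb, Bcl2 and Tnf were added, which gave 6 of 10 genes, 2 of 3 pro-survival genes, 1 of the 3 genes Fas, Tnf and Xaf1, and 9 intervals, beside 33.3% of all protein-coding genes. The 40 other genes gave 10 by the rule used, 6 within 1 kb, 16 within 50 kb, 7 and 5 with the height thresholds, 5 by nearest gene, and 4 by summits within 1 kb of a start, for which 35 of the 40 had an entry. Over all protein-coding genes the shares were, in the same order, 19.0%, 14.2%, 33.3%, 10.7%, 6.05%, 13.2% and 11.4%, the last among genes with an entry. Fewer intervals or a wider region follow from the construction of these alternatives. The unknown depth limits every statement on a gene without an interval.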
